A study of Homo sapiens with 12 samples.

Results

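The olfactory receptor genes of human chromosome 11 were examined as a large set of tissue-restricted genes outside their tissue of use. They were chosen by annotation alone, as the GENCODE protein-coding genes on chromosome 11 of hg19 whose symbols begin with OR, a family number, a subfamily letter and a member number. This gave 177 of 20098 protein-coding genes on chromosomes 1 to 22 and X. Chromatin immunoprecipitation followed by sequencing (ChIP-seq) had been done on HCC70 cells, a line established from a triple-negative breast tumour, with antibodies against H3K27ac, SREBP2 and RORγ. H3K27ac is acetylation of lysine 27 of histone H3, a mark of active promoters and enhancers, SREBP2 is the transcription factor that drives cholesterol synthesis genes, and RORγ is a nuclear receptor. Cells had received vehicle or XY018, an antagonist of RORγ, for 24 h, at 5 µM by the sample labels and at a lower dose by the methods of the study. Each of the 6 combinations of antibody and treatment was 1 library from the same parental line, with no genetic alteration named, so no difference below has a replicate check.

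Olfactory receptors are G protein-coupled receptors with 7 transmembrane segments, and each olfactory sensory neuron of the nose normally expresses a single receptor allele. The genes lie in tandem clusters with small promoters, the coding sequence usually sits in 1 exon, and in most other tissues the clusters are kept in compact, unacetylated chromatin. Class I receptors, related to those of fish, form a single cluster on the short arm of chromosome 11, whereas class II receptors are spread over many chromosomes.

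Of the 177 genes, 57 were class I (families 51, 52 and 56) and 120 were class II, in 11 families altogether. They lay in 8 groups when genes less than 1 Mb apart were joined. The first, at chr11:4388493-7963255, held 69 genes with every class I gene among them. The next largest, at chr11:55110677-56757318, held 50 genes, and the groups at chr11:123624288-124452838 and chr11:57791353-59481318 held 24 and 21. The annotated span had a median of 1094 bp, and 2 genes exceeded 20 kb because of long upstream introns, OR51B5 with 202 kb and OR9Q1 with 158 kb. A total of 6 symbols end in P, the usual mark of a pseudogene, although the annotation lists them as protein-coding.

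Calls, the regions in the deposited lists, all at p of at most 0.01, numbered from 69736 to 167375 per library. The H3K27ac lists hold only part of longer call sets. In them 99.1% and 98.8% of calls, with vehicle and XY018, had a q of at most 0.01, against 55.5% to 74.2% in the factor lists. Depth recovered from the call statistics was 3.65 to 6.16 tags per kb. In the lists as deposited, the fewest fragments behind a call at the genome-wide background were 5 with H3K27ac, 4 with SREBP2 and 3 with RORγ. The factor lists therefore include many very weak regions, which makes the receptor genes a view of how often each antibody gave a listed call in chromatin of this kind. The H3K27ac counts are not on the same footing as the factor counts. Expression was not measured in these files. H3K27ac calls lay at the promoters of 11 of 12 broadly expressed chromosome 11 genes with vehicle and at 12 of 12 with XY018. Among breast markers, 4 of 6 basal and 5 of 6 luminal promoters were acetylated with each treatment, ESR1 among the luminal ones. The basal sets differed, with TP63 called with vehicle alone and KRT6A with XY018 alone. Over all protein-coding genes the shares were 66.8% and 68%, so the basal count is near that of any gene. PGR was not acetylated, and none of 6 erythroid markers was.

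In the deposited lists, which leave out part of the H3K27ac call sets, H3K27ac was all but absent from the receptor genes. A promoter was scored when a call overlapped the window from 1000 bp before to 100 bp after any transcript start. With vehicle 0 of 177 promoters had an acetylation call, which allows a share of up to 1.69% when 3 counts are taken as the limit behind a 0 (exact 95% upper bound 2.06%), against 66.8% of all protein-coding genes. With XY018 it was 1 of 177 (0.565%, exact 95% interval 0.0143 to 3.11), against 68% of all genes. Such intervals cover counting error only. Within the genes themselves 1 of 177 had an acetylation call in each library, against 71.8% and 72.9% of all genes. In every case the gene was OR9Q1, so the label "silent" held for the acetylation of the other 176. The 238 olfactory receptor genes on other chromosomes had 1 acetylated promoter with either treatment, that of OR1F1 on chromosome 16.

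OR9Q1 is a class II receptor whose annotated start lies far upstream of its coding exon. An acetylation call at chr11:57791547-57792199 lay in its first intron with vehicle, and one at chr11:57791398-57791812 with XY018. The first had a fold enrichment of 6.45 over local background from 13 fragments and the second 6.12 from 15 fragments. The calls overlapped each other, and both were near the middle of their lists, whose median folds were 5.99 and 6.09. Only the XY018 call reached into the promoter window, which ends 100 bp past the start, so the promoter count of 0 against 1 reflects the edge of a region seen in both libraries. A further call with vehicle alone, at chr11:57826332-57826713, had a fold of 4.61 from 9 fragments. No SREBP2 or RORγ call overlapped these acetylated regions. The reference sequence around the stronger summit (hg19 plus strand, chr11:57791654-57791853) is given because it is the one receptor region acetylated with both treatments. Capitals mark its 5 CpG dinucleotides.

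OR9Q1 acetylated region: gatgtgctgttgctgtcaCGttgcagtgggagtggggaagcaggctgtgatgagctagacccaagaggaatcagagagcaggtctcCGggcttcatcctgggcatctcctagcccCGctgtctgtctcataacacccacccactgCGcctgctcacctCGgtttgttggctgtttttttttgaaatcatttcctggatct

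Apart from OR9Q1, acetylation was remote. The distance from the canonical start to the nearest H3K27ac call had a median of 250 kb with vehicle and 236 kb with XY018, and 145 and 144 of the 177 genes were more than 100 kb away. For the 1140 other protein-coding genes of the chromosome the median was 0, and 120 and 119 were that far. The closest after OR9Q1 was OR6Q1, at 6.23 kb, which lies within the long OR9Q1 span. OR6X1 followed at 12.6 kb. The farthest was OR4C46, beside the centromere, at 3335 kb. These 3 genes were named after their distances were seen.

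**Figure D1:**
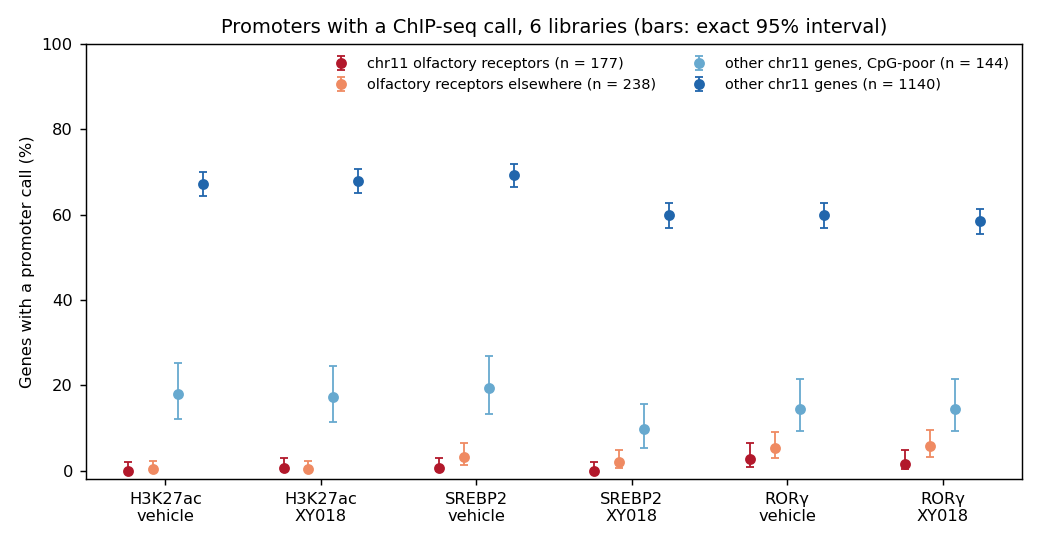
Share of genes (%) with a call at a promoter in each of the 6 libraries, for the 177 chromosome 11 olfactory receptor genes, 238 olfactory receptor genes elsewhere, 144 CpG-poor other genes of chromosome 11 and all 1140 other genes of the chromosome. Points are shares and bars exact 95% binomial intervals, and the receptor genes of chromosome 11 sit between 0 and 2.82% in every library.

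The factor antibodies also left nearly every receptor promoter uncalled. SREBP2 gave 1 of 177 with vehicle (0.565%) and 0 of 177 with XY018, against 70.6% and 62.7% of all genes. RORγ gave 5 of 177 with vehicle (2.82%, 0.923 to 6.47) and 3 of 177 with XY018 (1.69%, 0.351 to 4.87), against 62.6% and 61.5%. Taking all 6 libraries, 9 receptor promoters had any call (5.08%), against 82.5% of all genes, and 168 had none. The 9 were OR9Q1 for acetylation, OR8G3P for SREBP2, and OR4D9, OR5M10, OR4D5, OR10G8, OR10D3, OR2AT4 and OR8D1 for RORγ. OR4D9 was the one promoter called with the same antibody under both treatments. All 9 were class II. None of the 57 class I promoters was called in any library, which by the same 3-count limit allows a share of up to 5.26% in each (exact upper bound 6.27%). Over all libraries 7.50% of class II promoters were called, and a difference between the classes was not tested. All 9 called promoters lay on the long arm, whereas every class I gene lies on the short arm.

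Receptor genes elsewhere had slightly more factor calls at promoters, 8 and 5 of 238 for SREBP2 and 13 and 14 of 238 for RORγ in the order vehicle and XY018, with intervals that overlap those of the chromosome 11 set. Calls inside their genes were more frequent, with RORγ in 20.2% (15.3 to 25.8) and 19.3% (14.5 to 24.9) of genes, against 6.21% (3.14 to 10.8) and 5.08% (2.35 to 9.43) on chromosome 11, although gene lengths were not matched. Other genes of chromosome 11 were called at 58.5% to 69.3% of promoters. Base composition also differed. Receptor promoter windows had a median GC content of 36.1% and a median observed to expected CpG ratio of 0.145, against 55.7% and 0.607 for the other genes of the chromosome. In the 144 other genes with a CpG ratio no higher than the upper quartile of the receptors, 0.193, RORγ was called at 14.6% of promoters in both libraries (9.26 to 21.4), SREBP2 at 19.4% and 9.72%, and H3K27ac at 18.1% and 17.4%. These shares lie well under those of all other genes and still above the upper ends of the receptor intervals. The part of CpG content in the gap was not tested.

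**Figure D2:**
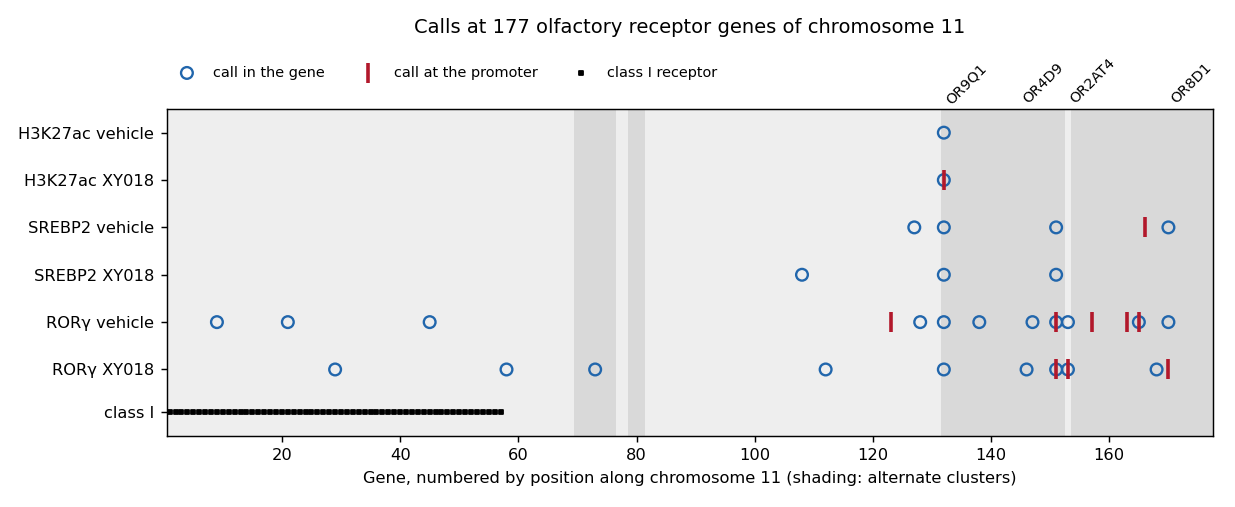
Calls at the 177 genes in their order along chromosome 11 (horizontal axis, gene number), 1 row per library, with red bars for promoter calls, open blue circles for calls in the gene, and black squares for class I receptors. Acetylation appears at OR9Q1 alone, and the calls at the class I genes, numbers 1 to 57, are all RORγ calls inside genes.

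Calls inside the gene spans were also few, and they followed the same order of antibodies. SREBP2 was called in 4 of 177 genes with vehicle and 3 with XY018, against 81.2% and 74% of all genes. RORγ was called in 11 and 9, against 80.1% and 77.7%. Gene spans differ greatly in length, so density is the fairer measure. Over the 0.981 Mb the receptor genes cover, there were 6.11 SREBP2 calls per Mb in either library (6.13 and 3.06 without OR9Q1 and OR51B5, the genes over 20 kb), and 18.3 (10.9 to 29.0) and 10.2 (4.89 to 18.7) RORγ calls per Mb. Spans of the other genes of the chromosome held 56.4 and 36.0 SREBP2 and 60.7 and 52.5 RORγ calls per Mb. Adding promoters and spans, 23 receptor genes had at least 1 call and 154 had none in any library. The called genes had longer spans, with a median of 7.48 kb against 1.03 kb, and thus more sequence in which a call could be counted. The part of span length in which genes were called was not tested.

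There were 51 calls at the receptor genes in all. In the order vehicle and XY018, 2 and 1 came from H3K27ac, 7 and 6 from SREBP2, and 22 and 13 from RORγ. Of these, 27 lay in introns, 14 in untranslated exons, 8 outside the receptor transcripts and 2 in a coding exon. The coding exon calls were RORγ calls in OR10Q1 with vehicle and in OR4S1 with XY018, genes named for this count. Overlapping calls formed 44 regions, of which 37 were called in 1 library alone.

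The SREBP2 calls at receptors were at the weak end of their lists, and most RORγ calls had folds below the median of theirs. The 48 SREBP2 and RORγ calls rested on 4 to 9 fragments at the summit, with a median of 5, over a background of 0.712 to 1.63 fragments. Their fold enrichment ran from 2.26 to 5.26. None reached a q value of 1e-05, whereas 43.6% and 46.2% of whole SREBP2 lists and 20.8% and 26.2% of whole RORγ lists did. At a q of at most 0.01, 14 of the 48 remained. All 7 and all 6 SREBP2 calls had a fold below the median of their list (4.39 and 4.52), as did 16 of 22 and 9 of 13 RORγ calls (medians 3.69 and 3.80). The highest factor call was a RORγ call with XY018 in an untranslated exon of OR5A2, a human receptor for musk odours, with 8 fragments and a fold of 5.26. With vehicle the highest RORγ folds were 4.48, each from 7 fragments, at OR5M10, OR2AT4 and in 2 regions at OR4D9. For SREBP2 they were 4.06 at OR8G3P from 9 fragments with vehicle and 3.59 in OR9Q1 from 7 fragments with XY018.

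**Figure D3:**
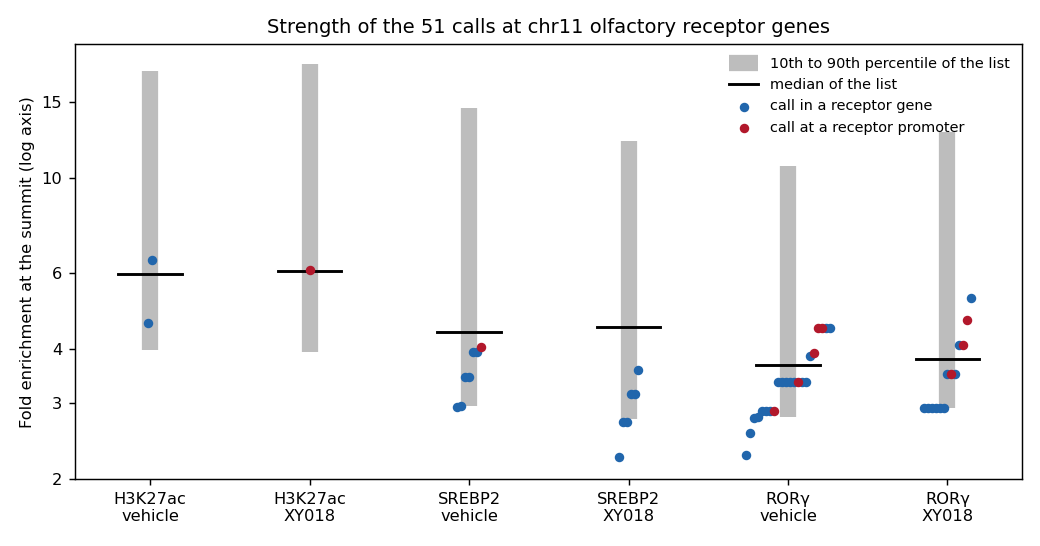
Fold enrichment at the summit (log axis) of the 51 calls at chromosome 11 olfactory receptor genes, by library. Blue points are calls in a gene and red points calls at a promoter, grey bars span the 10th to 90th percentile of the whole list and black lines mark its median, and every SREBP2 point lies below that line.

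Calls were concentrated in 4 genes. OR9Q1 had 15 and OR4D9 had 10, together 49.0% of the 51, and the other 26 were spread over 21 genes. Only OR9Q1, OR4D9, OR2AT4 and OR8D1 had more than 1 call. OR9Q1, with 2 and 1 H3K27ac, 2 and 4 SREBP2 and 4 and 2 RORγ calls, was the only gene called in all 6 libraries, and its 158 kb span encloses other receptor genes. OR4D9 is a compact gene by comparison, with 9.34 kb at chr11:59278841-59288176 on the plus strand. It had 2 and 1 SREBP2 and 5 and 2 RORγ calls, and none for H3K27ac, the nearest acetylation lying 25.2 kb away with vehicle.

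At the OR4D9 promoter the RORγ call with vehicle spanned chr11:59277686-59278375, with a fold of 4.48 from 7 fragments. With XY018 it spanned chr11:59277906-59278249, with 4.67 from 7 fragments. These agree within counting error. A second OR4D9 region, chr11:59284996-59285330 in an untranslated exon, was the only receptor region called in 3 libraries. RORγ was called there at a fold of 3.36 with vehicle and 2.92 with XY018, and SREBP2 at 2.71 with XY018. Only 39.1% of the 50-base words of the 200 bases around its summit occur once in the genome, which limits the reads that could be placed there.

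OR2AT4 lies by itself on the long arm at chr11:74792798-74807921 and is known from skin keratinocytes. It had 2 RORγ calls with vehicle, at folds of 4.48 and 3.36, and 2 with XY018, at 2.92 and 3.50, the last at its promoter. That promoter call overlapped a stronger RORγ call with vehicle, which was not counted because it lay upstream of the window. The stronger call had a fold of 8.95 and its summit at chr11:74809452. The nearest SREBP2 calls to the OR2AT4 start were 1269 bp away with vehicle and 1345 bp with XY018, also outside the window. OR8D1, a receptor for sotolone in the long-arm group near 124 Mb, had 1 SREBP2 call with vehicle and 1 RORγ call with each treatment. Its SREBP2 and RORγ vehicle calls overlapped in an intron, at folds of 3.95 and 3.36, and the XY018 call lay at the promoter with a fold of 4.09. The class I genes with a call were OR51E2, an androgen-responsive gene of prostate, OR51L1 and OR52N2 with vehicle, and OR51B5, beside the globin genes, with XY018. Each had a single RORγ call of 4 or 5 fragments, and these genes are named for their small number.

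Many of the called regions held TAATCCCAG, a word from the consensus of the Alu repeat, the most abundant short interspersed element of the human genome. The word was chosen after the sequences under the calls were seen, and was searched on both strands, as TAATCCCAG or CTGGGATTA, within 100 bp of each summit. It was present at 21 of the 51 calls (41.2%), and all 21 were factor calls. OR4D9 held 7 of the 21 and OR9Q1 held 5, and some regions were counted in several libraries. The calls are therefore not independent, no interval is given, and the share is not an estimate over receptor genes. The 21 comprised 4 of 7 and 3 of 6 SREBP2 calls and 6 of 22 and 8 of 13 RORγ calls, in the order vehicle and XY018. Windows of the same size placed every 1 kb through the 8 groups held the word in 2.91% of cases, and through the rest of the chromosome in 5.26%. Whole lists held it at 27.3% and 23.0% of RORγ, 13.9% and 8.87% of SREBP2 and 18.4% and 19.1% of H3K27ac summits, so the word was also present at calls elsewhere. The few receptor calls held it at 27.3% and 61.5% for RORγ and 57.1% and 50% for SREBP2, above the lists except for RORγ with vehicle. All calls inside the groups held it at 28.1% and 25.2% for RORγ and 17.0% and 7.5% for SREBP2. These differences were not tested. Summits at receptor genes were also GC-rich for their surroundings, with a median of 51.2% against 38.3% for the evenly spaced windows, while whole-list summits had medians of 53.2% to 67.2%. The SREBP2 calls at receptors, at 46.8% and 52.0%, lay below their lists, at 64.2% and 67.2%. The part of repeats and of GC content in these calls was not tested. Only these letters were matched, and no full repeat was aligned.

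Receptor promoters carried the letters of the factors' own elements about as often as other promoters. AGGTCA or its complement TGACCT, the core of elements bound by ROR receptors, was present in 48.6% of receptor windows and in 48.5% of all promoter windows of the same rule. TCACNCCAC, the sterol regulatory element bound by SREBP factors, was present in 4.52% against 6.11%. Of the 51 call summits, 13 had AGGTCA within 100 bp and 1 had TCACNCCAC. In the order vehicle and XY018, the 13 comprised 5 of 22 and 4 of 13 RORγ and 2 of 7 and 2 of 6 SREBP2 calls. Whole lists held AGGTCA at 25.6% and 23.1% of RORγ and 17.1% and 13.1% of SREBP2 summits. Evenly spaced windows through the groups held AGGTCA in 10.9% of cases and TCACNCCAC in 0.857%. CCCNNGGG, the palindromic core bound by the olfactory EBF factors, was present in 15.8% of receptor windows against 45.4% of all windows, which are richer in C and G. Only OR10Q1 had a CpG ratio above 0.6, at 0.706, against 51.3% of the other genes of the chromosome, and it carried the coding exon call above. Among the 10 receptors with the highest CpG ratios, 5 had a call, against 23 of 177. The 5 were OR10Q1, OR8H1, OR5M10, OR52N2 and OR4D5, each with a single RORγ call, and they were picked out after their values were seen.

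Around the starts of receptor genes there was no local rise of any antibody. Summits were counted in 10-kb steps to 100 kb on either side, and neighbouring receptors share many of the same calls. In the first 10 kb downstream of the start the density of RORγ calls was 26.6 per Mb with vehicle and 19.2 with XY018, within the range of the 20 steps, 20.3 to 33.9 and 10.7 to 29.9. For SREBP2 it was 6.78 and 6.21 per Mb, within 5.08 to 15.3 and 3.95 to 12.4. H3K27ac was at 0.565 per Mb there and rose to 6.78 and 7.91 per Mb only at more distant steps. At the other genes of the chromosome the same step was the highest of the 20 for every library, from 113 to 163 calls per Mb.

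**Figure D4:**
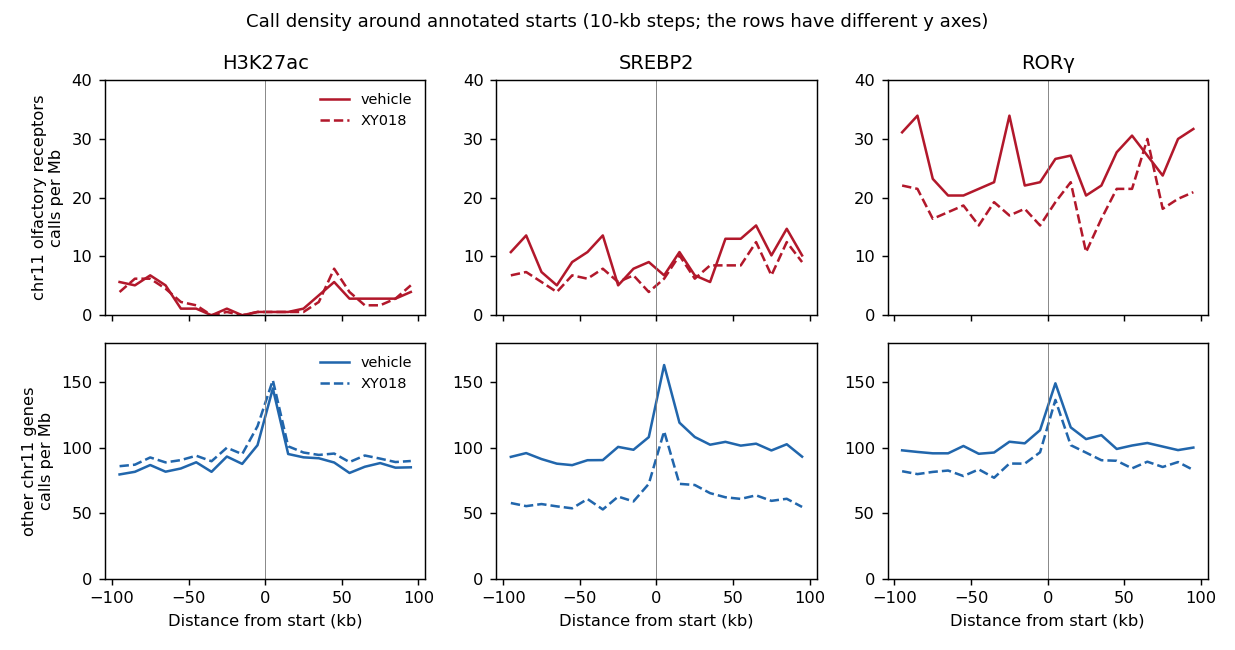
Calls per Mb in 10-kb steps by distance from the canonical start (kb, positive downstream) for the receptor genes (upper row) and the other genes of chromosome 11 (lower row, with a larger vertical scale), with solid lines for vehicle and dashed lines for XY018. The receptor curves show no peak at the start, where the other genes reach 113 to 163 calls per Mb.

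The whole groups, with the stretches between receptors and 64 other genes, held fewer calls than the rest of the chromosome. Over 8.16 Mb the density was 10.7 and 12.1 calls per Mb for H3K27ac, 13.0 and 9.80 for SREBP2, and 24.4 and 19.0 for RORγ. Outside the groups it was 32.7 and 35.0, 41.8 and 26.1, and 53.1 and 43.6. The order of the antibodies depends on the threshold. At a q of at most 1e-05 the group densities were 8.21 and 8.82 for H3K27ac, 6.62 and 4.29 for SREBP2 and 4.90 and 4.53 for RORγ, and with genes joined within 200 kb the H3K27ac densities were 3.58 and 3.92. Most of the acetylation inside the groups came from the group near OR9Q1 and OR4D9, with 69 and 80 of the 87 and 99 H3K27ac calls. Non-receptor genes there such as OSBP and DTX4 had strong promoter calls. So did LPXN and ZFP91, adjacent genes whose promoter windows share the same strongest call. OSBP, an oxysterol-binding protein gene 98.1 kb from the nearest receptor, had a fold of 91.2 and 114 for H3K27ac. In the 50-gene group, with 2 other genes, there was 1 H3K27ac call with vehicle and 0 with XY018. The 64 other genes had H3K27ac at 24 and 27 promoters, and these neighbours were named after their values were seen.

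RORγ calls were denser in the long-arm groups than in the short-arm group that holds the class I genes. The short-arm group had 14.5 (10.9 to 19.1) and 12.0 (8.71 to 16.2) per Mb. The 50-gene group had 29.8 (22.01 to 39.3) and 23.7 (16.8 to 32.4), and the group near 124 Mb had 30.2 and 22.9. The same step between the arms was present without receptors. Among 100-kb intervals with no H3K27ac call in either library, those holding a receptor had 18.6 (13.9 to 24.4) and 11.8 RORγ calls per Mb on the short arm and 35.2 (28.5 to 43.0) and 28.5 on the long arm. Those without a receptor had 22.6 (20.8 to 24.4) and 17.1 on the short arm and 39.2 (37.1 to 41.3) and 31.0 on the long arm. The share of calls that met only the genome-wide background was 87.3% and 86.0% in the short-arm intervals without receptors and 75.8% and 73.0% in those of the long arm, so a locally raised background was more frequent on the long arm, and its part in the difference was not tested.

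**Figure D5:**
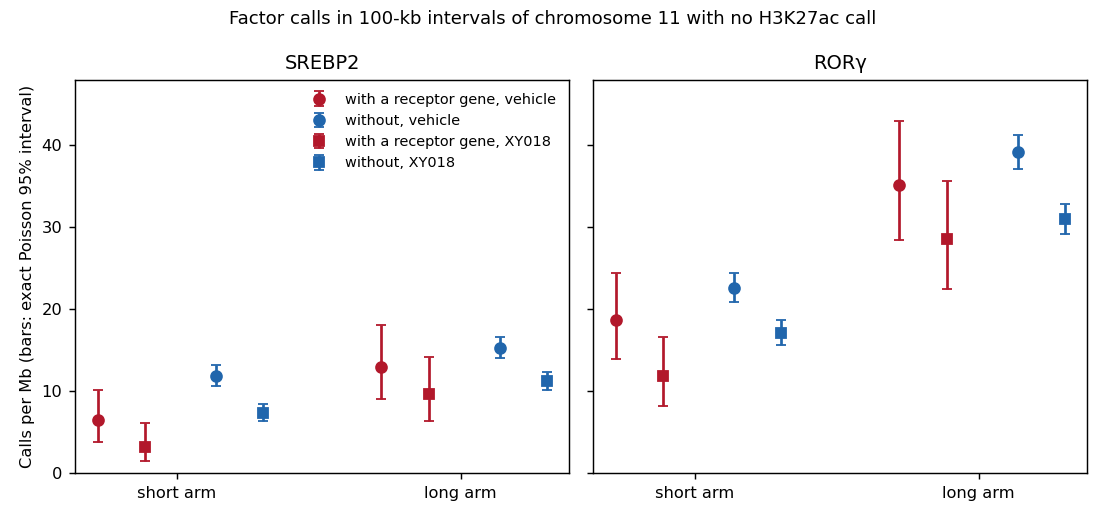
Calls per Mb of SREBP2 (left) and RORγ (right) in 100-kb intervals of chromosome 11 with no H3K27ac call, by arm, for intervals with a receptor gene (red, 28 and 27 intervals) and without (blue, 276 and 363), with circles for vehicle, squares for XY018 and bars for exact 95% Poisson intervals. Long-arm values lie above short-arm values in both colours.

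Pooling the arms, unacetylated intervals with a receptor had 9.65 and 6.37 SREBP2 and 26.8 and 20.02 RORγ calls per Mb, against 13.8 and 9.52 and 32.0 and 25.0 in unacetylated intervals without one. When the latter were limited to the middle range of GC content of the receptor intervals, they had 7.65 and 7.45 SREBP2 and 26.3 and 20.6 RORγ calls per Mb. All of these last values lay inside the 95% intervals of the receptor intervals of any GC content. Those were 7.23 to 12.6 and 4.44 to 8.86 for SREBP2 and 22.6 to 31.4 and 16.5 to 24.1 for RORγ. The 28 receptor intervals within the same GC range had 8.23 (5.22 to 12.4) and 5.01 (2.74 to 8.41) SREBP2 calls per Mb. For RORγ they had 23.6 (18.3 to 30.1) and 16.1 (11.7 to 21.5). The GC-limited values without a receptor lay inside these intervals too. Poisson intervals treat calls as independent, yet single 100-kb intervals without a receptor in this GC range held up to 34 and 21 RORγ calls. The arms were also not matched in the GC-limited sets, so equal rates are not shown. The nearest RORγ call was a median of 16.5 kb from a receptor start with vehicle and 24.2 kb with XY018, and the nearest SREBP2 call 47.7 and 52.3 kb.

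Of the vehicle calls at receptors, 0 of 7 for SREBP2 (interval 0 to 41.0%) and 3 of 22 for RORγ (13.6%, 2.91 to 34.9) overlapped an XY018 call of the same antibody, and 1 of 2 for H3K27ac did. In the other direction 0 of 6 SREBP2, 4 of 13 RORγ (30.8%, 9.09 to 61.4) and 1 of 1 H3K27ac calls with XY018 overlapped a vehicle call. Over whole lists the shares of vehicle calls were 39.8%, 36.4% and 69.3%, and over all calls inside the groups 49.1%, 31.7% and 71.3%. The whole factor lists hold many stronger calls, and these shares were not matched for call strength. Promoter calls seen with vehicle alone numbered 0 for H3K27ac, 1 for SREBP2 and 4 for RORγ, against 2.17%, 8.81% and 5.17% of all genes. Those seen with XY018 alone numbered 1, 0 and 2, against 3.39%, 0.866% and 4%. Of these, the acetylated OR9Q1 region and the RORγ region at OR2AT4 overlapped a vehicle call that lay just beyond the window. RORγ calls at receptors fell from 22 to 13 and those in its whole list from 167375 to 130047, while background fragments were 0.787 and 0.712. With 1 library each, treatment and library cannot be told apart. SREBP2 and RORγ calls overlapped at 2 of 7 SREBP2 calls with vehicle and 1 of 6 with XY018, against 49.0% and 64.1% of the whole SREBP2 lists.

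Because only uniquely placed reads were kept, near-identical receptors could have been undercounted. The share of 50-base words that occur once in the genome, on either strand, had a median of 100% over promoter windows and 98.9% over genes. At least 90% of words were unique in 165 promoter windows and in 151 genes. The lowest genes were OR51A2 (46.0%), OR10G9 (56.5%), OR8B2 (56.7%), OR52I1 (59.7%), OR4A47 (62.0%) and OR5M10 (65.8%). Of these 6, OR5M10 alone had a call upstream of its start, in a region where 54.6% of words were unique. Most receptors thus had sequence on which reads could be placed, and the counts of these 6 are less certain.

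Other silent or olfactory genes gave a mixed picture. The 5 beta globin genes, which lie within the class I group and are expressed in red cell precursors, had 0 promoter calls in all 6 libraries. Of 16 genes of olfactory signalling or its control, 5 promoters had H3K27ac with vehicle and 7 with XY018, against 66.8% and 68% of all genes. Among these, ADCY3 and GNAL, which encode the adenylyl cyclase and G protein subunit of the odorant cascade, were acetylated with both treatments and have CpG-rich promoters, and they were the 2 acetylated genes among 6 markers of olfactory sensory neurons. OMP, the olfactory marker protein gene on chromosome 11, was not acetylated but had SREBP2 and RORγ calls in all 4 libraries. The channel subunit gene CNGA2 and the receptor transport genes RTP1 and RTP2 had no call in any library. SREBP2 was called at 12 and 11 and RORγ at 11 and 11 of the 16 promoters. These counts are near the shares of all genes, 70.6% and 62.7% for SREBP2 and 62.6% and 61.5% for RORγ.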

How the data were processed

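The labels' antibody and treatment gave the groups, and the 6 input samples were not used here. The authors aligned single-end 50-base reads to hg19, with BWA by the study's methods and Bowtie2 by the submitters' processing notes, kept uniquely placed reads without duplicates, and called peaks per library with MACS2 2.1.0. For each call the authors deposited a fold enrichment ratio (summit pileup plus 1 over local background plus 1), −log10 p and −log10 q values, and a display score, which was not used. The deposited H3K27ac lists hold part of longer call sets, numbered up to 245055 and 241397, by a rule not given in the sources used here, so weak acetylation may be missing.

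Genes came from GENCODE 44 lifted to GRCh37. Calls were counted when they overlapped a window by at least 1 bp. Fragments at the summit and local background were recovered from fold and −log10 p under a Poisson model, which gave whole numbers for 99.9991% to 100% of calls, with a tolerance of 0.0005 in −log10 p or 5% of the step. The commonest background served as the genome-wide value, and divided by the smallest width in the list it gave depth. Unique 50-base words were counted over the primary assembly. Intervals are exact (Clopper-Pearson, or Poisson for densities) at 95%, and no p-value was computed. Python 3.11.15, numpy 2.4.6, scipy 1.17.1 and pandas 2.3.3 were used, and counting and inversion were tested on simulated data.

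Members and gene lists were chosen with earlier results of these data known. Named receptors were those with acetylation, with promoter calls in most libraries (up to 12), most calls in the gene (up to 5), the highest fold of each library, or the fewest unique words (up to 6), and others are said to be chosen after their values were seen. Alternatives varied the q value, list length, window, overlap, uniqueness and grouping, and 2 were added after seeing the data. The sequences of the other called regions are not reported here.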

Additional observations from a re-analysis of the deposited data

How the results depend on the processing

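Of 124 recomputed values, 83 stayed within the set margin (1.5 times for a count, the 95% interval of the reported value for a share or density) and 41 moved. No paired analysis was possible because each group had 1 library. Values are in the order vehicle and XY018. At a q of at most 1e-05, SREBP2 promoters fell from 1 to 0 with vehicle, RORγ promoters from 5 and 3 to 0 and 0, SREBP2 genes from 4 and 3 to 0 and 0, and RORγ genes from 11 and 9 to 0 and 0, while the H3K27ac call of OR9Q1 stayed and the kept share for H3K27ac became 100%. At a q of at most 0.01, RORγ promoters fell to 3 with vehicle, SREBP2 genes to 2 and 1, and RORγ genes to 3 and 2. With a window of 5 kb to either side, promoters with a call rose to 1 for H3K27ac vehicle, 13 and 8 for SREBP2 and 40 and 28 for RORγ, the window being wider. With the summit required inside the window, H3K27ac XY018 and SREBP2 vehicle each fell to 0. With canonical starts alone, RORγ promoters with vehicle were 3. In lists of equal length, SREBP2 genes with vehicle were 0. Leaving out genes over 20 kb removed the acetylated gene (0 and 0), and leaving out symbols ending in P removed the SREBP2 promoter (0); both were chosen after seeing the data.

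Group densities per Mb at a q of at most 0.01 were 9.68 and 7.23 for SREBP2 and 11.6 and 7.84 for RORγ. At 1e-05 they were 8.21 and 8.82 for H3K27ac, 6.62 and 4.29 for SREBP2 and 4.90 and 4.53 for RORγ. In lists of equal length they were 7.84 for SREBP2 vehicle and 18.5 for RORγ vehicle. Joining genes within 200 kb gave 3.58 and 3.92 for H3K27ac and 9.88 and 7.49 for SREBP2. Kept shares at 1e-05 could not be given for SREBP2 and RORγ, which had no call left. The cause of these moves was not tested beyond the construction of each alternative. At these depths 3 fragments were enough for a RORγ call and 4 for a SREBP2 call.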
